A study of Mus musculus with 4 samples.

Results

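The ubiquitin-specific proteases (USPs) were examined by poly(A) RNA-seq of mouse cells labelled as pachytene spermatocytes, with and without a knockdown of Hsf5. Members were chosen by symbol alone, as every row of the deposited count table named Usp followed by a number and optional letters and digits, with at least 1 count. This rule found 57 rows among the 50763 genes of the table, of which 54 had a count. Of the 54, 52 encode USP proteases, and the other two are Usp6nl, a GTPase-activating protein that shares only the name, and Usp46os1, a transcript from the strand opposite Usp46. At the edge of the rule, Usp17lc entered with 2 counts in all, while Usp17la, Usp17lb and Usp17ld had none.

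USPs are cysteine proteases that cut ubiquitin from proteins or from ubiquitin chains, and so reverse the action of ubiquitin ligases. They form the largest family of deubiquitinases, and members act on histones, on DNA repair and replication proteins, on receptors in endosomes and at the proteasome. In male germ cells, ubiquitination of histone H2A is a known mark of the silenced X and Y chromosomes at pachytene, and ubiquitin-dependent turnover accompanies the remodelling of the cell into a sperm.

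The groups were 2 libraries from Hsf5 knockdown mice and 2 from wild-type (WT) mice, labelled as biological replicates. Hsf5 encodes a heat shock factor made mainly in the testis, and pachytene is the stage of meiotic prophase at which homologous chromosomes are fully paired. The labels do not say how the knockdown was made, how old the animals were or which animals gave which library, so the p-values reflect only the variation among these 4 libraries, part of which may be technical. Counts assigned to genes summed to between 33287428 and 42479164 per library. Hsf5 itself stood at 287 and 238 CPM (counts relative to library size, scaled by edgeR's TMM factors) in the knockdown libraries, against 586 and 449 CPM in WT (log2 fold change -0.98, SE 0.31; edgeR, adjusted p = 0.0217), so the knockdown libraries still held Hsf5 RNA. Its call was lost with library totals only (adjusted p = 0.115 by edgeR), without WT replicate 1 (0.219) and without WT replicate 2 (0.0725).

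Marker genes of several cell types, not only of pachytene spermatocytes, were detected and differed between the groups. The 10 spermatid markers summed to 3.96 and 4.9 CPM in the knockdown libraries, against 4117 and 2070.5 CPM in WT, and the 10 mid and late pachytene markers summed to 1965 and 1628 CPM in the knockdown libraries, against 8521 and 9387 CPM in WT. All 10 Sertoli cell markers were higher in the knockdown libraries, where they summed to 3507 and 4091 CPM, against 146 and 384 CPM in WT. The 5 Leydig cell markers summed to 1192 and 2398 CPM in the knockdown libraries, against 104 and 694 CPM in WT. The 13 spermatogonial markers summed to 630.0 and 653 CPM in the knockdown libraries, against 166 and 159.6 CPM in WT. Of these, 9 were higher, and Gfra1, Id4, Nanos2 and Nanos3 did not pass. The 9 leptotene and zygotene markers, 8 of them higher, summed to 1354 and 942 CPM in the knockdown libraries, against 588 and 556 CPM in WT. Of 5 endothelial markers 2 were higher and 3 did not pass. Of 3 tested peritubular myoid markers 2 were higher and 1 did not pass. Among all genes tested, 27.4% were higher. Macrophage markers, 6 of 7 of them higher, summed to 165 and 53 CPM in the knockdown libraries and to 10.7 and 11.4 CPM in WT. The spermatid markers Prm2 and Smcp had no read in either knockdown library. The 17 synaptonemal complex and meiotic cohesin genes used for one of the scalings summed to 3451 and 2551 CPM in the knockdown libraries and to 3312 and 2956 CPM in WT, with 6 higher, 2 lower and 9 that did not pass. In bulk RNA, fewer cells of a type and less RNA per cell cannot be told apart, and the part of these markers in the results on the USPs was not tested.

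Counts reached the filter on low values for 50 of the 52 protease genes. Of these 50, 17 were higher in the knockdown libraries, 13 were lower and 20 did not pass, so that 60% were called against 60.9% of all genes tested (edgeR quasi-likelihood test over 23594 genes, Benjamini-Hochberg adjusted p below 0.05, n = 2 per group). The shares were 34% higher and 26% lower among the USP genes, against 27.4% higher and 33.5% lower among all genes tested, so the family moved about as often as genes at large. The median log2 fold change of the 50 genes was -0.01 and that of all genes -0.12. Values of the 2 groups did not overlap for 22 members with the knockdown libraries above WT and for 20 with them below, while among all genes these shares were 39% and 43.7%. The balance of the calls depended on scaling: 56.7% of the USP calls were rises with TMM, 68.8% with library totals only and 40% with scaling on synaptonemal complex and cohesin genes, which moved the median of all genes to 0.31 and -0.50. The share of rises among the calls of all genes moved in step, at 45.01%, 54.9% and 31.02%. Without WT replicate 1 the USP genes held 11 rises. Usp13 and Usp18 passed the filter only through the knockdown libraries and Usp50 only through the WT libraries.

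**Figure D1:**
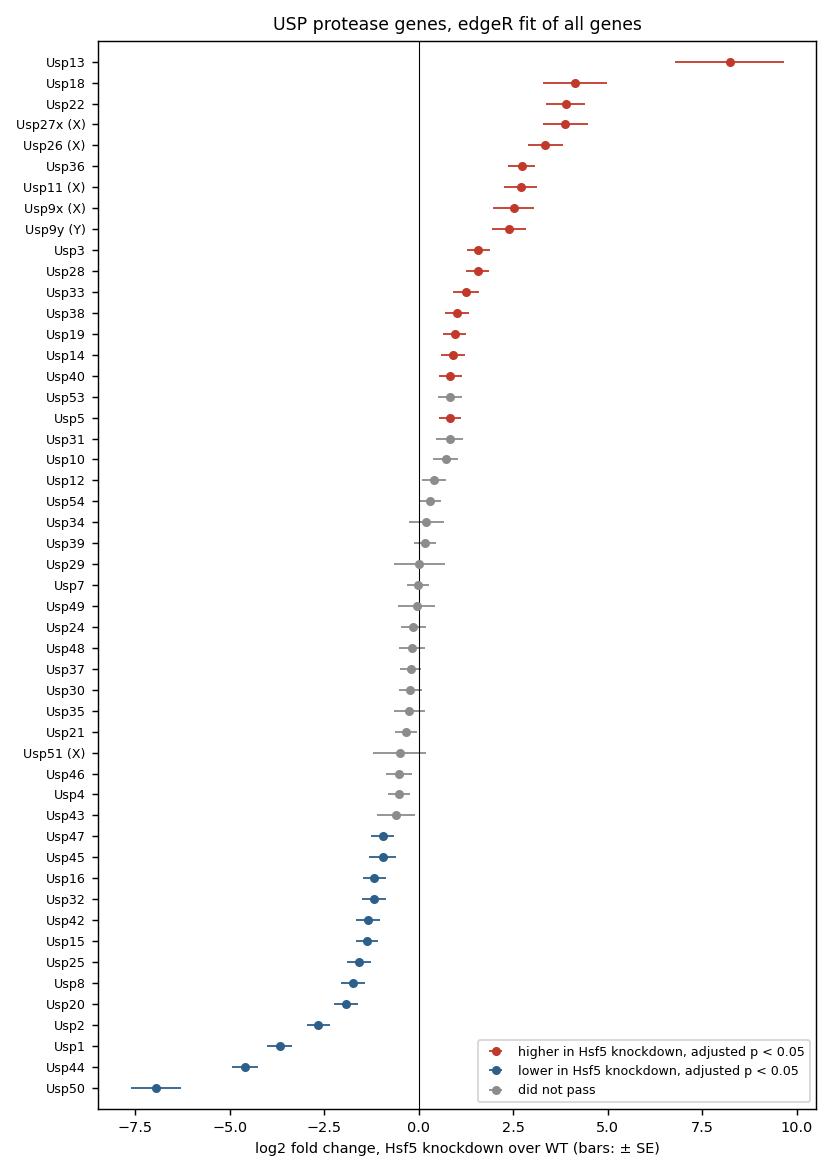
Log2 fold change of the 50 tested USP protease genes, Hsf5 knockdown over WT, on the horizontal axis, with points coloured by call and bars of ± 1 SE. The 13 genes called lower run down to Usp50 at -6.96 and the 17 called higher run up to Usp13, whose fitted 8.22 rests on WT libraries with no count and is not a bound; X- and Y-linked genes are marked.

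The deepest falls were in Usp50, Usp44, Usp1 and Usp2. Usp50, a little studied member that lies next to Usp8 on chromosome 2, stood at 0.127 and 0.315 CPM in the knockdown libraries and at 36.5 and 18.5 CPM in WT, a log2 fold change of -6.96 (SE 0.67; edgeR, adjusted p = 4.72e-05). The counts behind the knockdown values were 6 and 13 reads, against 1226 and 531 in WT. About 15.0% of the 75-base stretches of the longest Usp50 transcript also occur in Polr2l or Gm10774, so a part of its reads could fit a second place. Usp44, which removes ubiquitin from histone H2B and acts in the mitotic checkpoint, had 4.11 and 4.41 CPM in the knockdown libraries and 118 and 89 CPM in WT, with a log2 fold change of -4.60 (SE 0.36; edgeR, adjusted p = 1.63e-05). Both genes were low in both knockdown libraries and the groups lay far apart.

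Usp1 removes ubiquitin from the DNA repair proteins FANCD2 and PCNA, and mouse males without it are infertile. It was present at 62.2 and 64.1 CPM in the knockdown libraries, against 862 and 761 CPM in WT, a mean 12.8-fold lower (log2 fold change -3.68, SE 0.33; edgeR, adjusted p = 3.2e-05). About 14.1% of the 75-base stretches of its longest transcript also occur in Gm5841, so a part of its reads could fit a second place. Usp2, whose loss in mice lowers male fertility, had 65.9 and 70.9 CPM in the knockdown libraries and 414 and 452 CPM in WT, which gave -2.66 (SE 0.30; edgeR, adjusted p = 0.000119) on the log2 scale. For both genes the knockdown libraries were close to each other and lay far below WT.

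Further falls were smaller and spread over several roles. The spermatid and late pachytene marker sums given above were lower in the same libraries. Usp8, which sorts receptors at endosomes, had 167 and 186 CPM in the knockdown libraries and 519 and 668 CPM in WT, and fell by 1.75 on the log2 scale (SE 0.31; edgeR, adjusted p = 0.00126). Usp16, a histone H2A deubiquitinase, had 66.2 and 55.4 CPM in the knockdown libraries and 154 and 120.4 CPM in WT. Its log2 fold change was -1.18 (SE 0.30; edgeR, adjusted p = 0.00714) and missed the threshold once WT replicate 1 was left out (0.0837). Usp32, a membrane-associated member, had 203 and 250.1 CPM in the knockdown libraries and 447 and 581 CPM in WT, or -1.18 on the log2 scale (SE 0.31; edgeR, adjusted p = 0.0093). Its call was lost with library totals only (edgeR, adjusted p = 0.0568) and without WT replicate 2 (0.13). Usp45, a relative of Usp16, had 14.9 and 19.6 CPM in the knockdown libraries and 31.3 and 35.9 CPM in WT. It passed narrowly (log2 fold change -0.96, SE 0.35; edgeR, adjusted p = 0.0385) and held that call in 4 of 11 alternative settings, so its fall is the least certain of the 13. Usp47, which acts on beta-catenin and DNA polymerase beta, fell by 0.96 (SE 0.30), with 286 and 319 CPM in the knockdown libraries and 548 and 627 CPM in WT. That call was lost with library totals only (edgeR, adjusted p = 0.132) and without either WT library (0.0902 and 0.203).

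**Figure D2:**
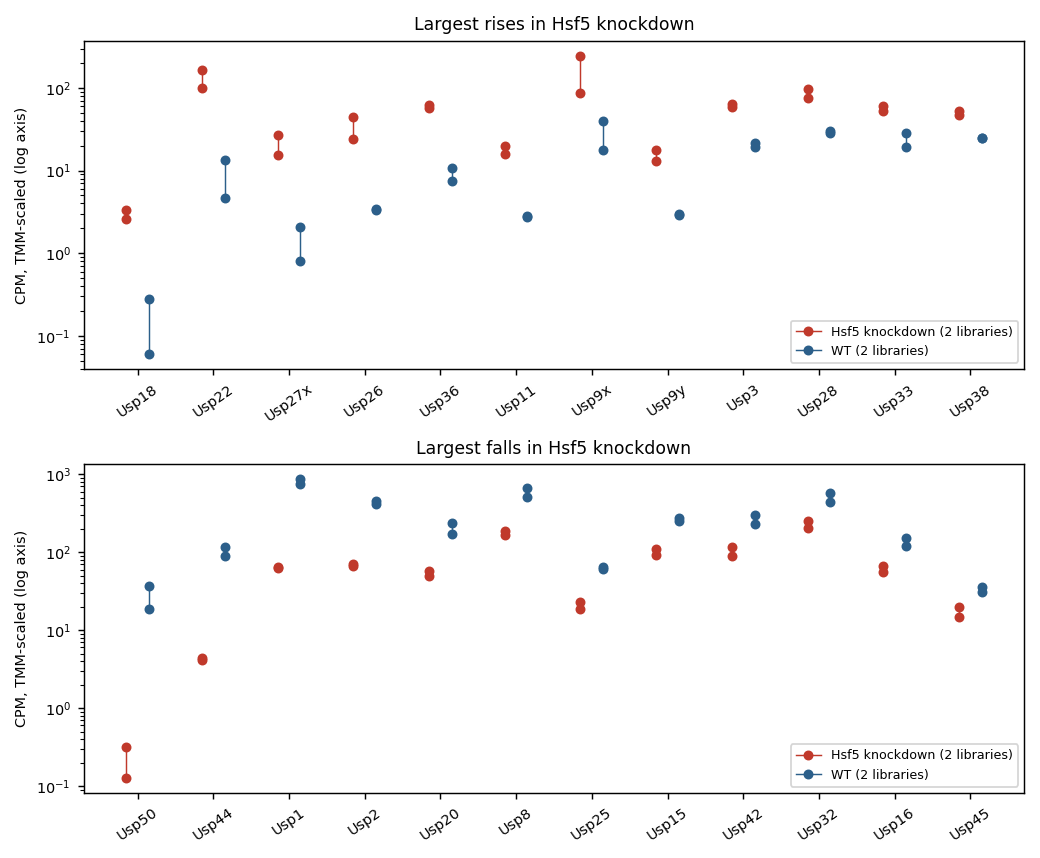
CPM of each library (log axis) for the 12 largest rises, upper panel, and the 12 largest falls, lower panel, with the 2 knockdown libraries left of the 2 WT libraries for each gene. The groups do not overlap for any of the 24 genes, which were picked by fold change and adjusted p in these same libraries. Over all genes tested, 39% lay without overlap above WT in the knockdown libraries and 43.7% below. The lowest value shown is Usp18 at 0.0596 CPM in WT replicate 1, and the highest is Usp1 at 862 CPM in WT replicate 1.

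Among the rises, the largest in a gene of moderate level was that of Usp22. This gene encodes the ubiquitin protease of the SAGA coactivator complex, which acts on histone H2B. It had 101 and 163 CPM in the knockdown libraries and 4.62 and 13.3 CPM in WT, a log2 fold change of 3.88 (SE 0.52; edgeR, adjusted p = 0.000291). Both groups were spread, with replicate 2 above replicate 1 in each, and they stayed apart. Usp36, a nucleolar member, had 57.7 and 62.2 CPM in the knockdown libraries and 7.42 and 10.8 CPM in WT, and rose by 2.72 (SE 0.36; edgeR, adjusted p = 0.000271). Usp3, another histone H2A deubiquitinase, had 63.8 and 58.9 CPM in the knockdown libraries and 19.4 and 21.8 CPM in WT, or 1.58 on the log2 scale (SE 0.31; edgeR, adjusted p = 0.00221), which missed the threshold with scaling on synaptonemal complex and cohesin genes (0.0666). The Sertoli, Leydig and macrophage marker sums given above were higher in the same libraries as these genes. So were the spermatogonial sum and the leptotene and zygotene sum, and a link of any of them to these rises was not tested.

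Usp18 removes the ubiquitin-like protein ISG15 and is an interferon-induced gene. It was low throughout, at 2.56 and 3.32 CPM in the knockdown libraries against 0.0596 and 0.278 CPM in WT, and its rise of 4.13 (SE 0.84; edgeR, adjusted p = 0.00241) rests on 2 and 8 WT reads. Usp13, the close relative of Usp5, lay below the mean of 1 CPM set for giving full values. It was singled out after its values were seen, because it was the only tested member without a read in a group. Its 45 and 42 reads in the knockdown libraries gave 0.953 and 1.02 CPM, which against a floor of 3 reads over the WT group is at least 20.4-fold higher. Usp38, with few known substrates, had 47.2 and 53.2 CPM in the knockdown libraries and 25.1 CPM in each WT library. Its log2 fold change of 1.00 (SE 0.31) did not pass without WT replicate 1 or 2, without knockdown replicate 2 or with scaling on synaptonemal complex and cohesin genes (edgeR, adjusted p = 0.117, 0.0919, 0.0824 and 0.288). Exons of Usp38 overlap those of Gm9725 on the opposite strand.

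The sex chromosomes held a cluster of rises. Of 5 X-linked members 4 were higher and Usp51 did not pass, and the single Y-linked member was higher. Of all 817 tested X-linked genes 67.9% were higher, with a median log2 fold change of 2.89, and the median of the 5 X-linked members was 2.69. The 44 tested autosomal members held 12 rises and 13 falls, or 27.3% and 29.5%, against 26.5% and 33.8% of all autosomal genes tested. The X-linked members are therefore read against the X chromosome and not against the whole table.

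Usp26, a testis-expressed X-linked gene, had 24 and 45 CPM in the knockdown libraries and 3.37 and 3.41 CPM in WT, a log2 fold change of 3.35 (SE 0.45; edgeR, adjusted p = 0.000303). Usp11, which acts in DNA repair by homologous recombination, had 16.1 and 20 CPM in the knockdown libraries and 2.8 and 2.78 CPM in WT, or 2.69 (SE 0.44; edgeR, adjusted p = 0.000805). The WT libraries of both genes were nearly equal. Usp9x, a large protease with many signalling substrates, had 85.9 and 247 CPM in the knockdown libraries and 17.9 and 40.4 CPM in WT, and rose by 2.51 (SE 0.54; edgeR, adjusted p = 0.00331). In each group its replicate 2 exceeded its replicate 1, by 2.87-fold in the knockdown and 2.25-fold in WT, and its call was lost with scaling on synaptonemal complex and cohesin genes (edgeR, adjusted p = 0.0543). Its Y-linked partner Usp9y had 13.1 and 17.8 CPM in the knockdown libraries and 2.92 and 2.95 CPM in WT, or 2.39 (SE 0.45; edgeR, adjusted p = 0.00168). Of the 29 tested Y-linked genes 34.5% were higher and 58.6% were lower.

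Several related genes moved in opposite directions, where 27.4% of all genes tested were higher and 33.5% lower. Other relatives were called alike: Usp5 with Usp13, Usp22 with Usp27x and Usp9x with Usp9y higher, and Usp16 with Usp45 lower. Neither gene passed in the pairs Usp12 and Usp46, Usp53 and Usp54, and Usp31 and Usp43. In the group of Usp4, Usp11 and Usp15, which share their domain layout and act in TGF-beta signalling and RNA processing, Usp11 rose as given above and Usp15 fell. Usp15 had 112 and 92.2 CPM in the knockdown libraries and 276 and 255 CPM in WT, a log2 fold change of -1.38 (SE 0.29; edgeR, adjusted p = 0.00283). Usp4 had 201 and 166 CPM in the knockdown libraries and 252 and 279.7 CPM in WT and did not pass (-0.53, SE 0.29; edgeR, adjusted p = 0.136).

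Usp20 and Usp33 are close relatives that both bind the von Hippel-Lindau protein. Usp20 had 49.7 and 58.2 CPM in the knockdown libraries and 174 and 237 CPM in WT, and fell by 1.93 on the log2 scale (SE 0.31; edgeR, adjusted p = 0.000705). Usp33 had 52.2 and 61.3 CPM in the knockdown libraries and 19 and 28.7 CPM in WT, and rose by 1.25 (SE 0.34; edgeR, adjusted p = 0.011). The rise of Usp33 was lost with scaling on synaptonemal complex and cohesin genes (edgeR, adjusted p = 0.216) and without WT replicate 1 (0.124). It is also the less certain count, since 36.2% of the 75-base stretches of its longest transcript occur in other annotated transcripts.

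Usp25 and Usp28 showed the same division. Usp25, a regulator of inflammatory signalling, had 18.7 and 23.2 CPM in the knockdown libraries and 64.3 and 61.2 CPM in WT, or -1.58 (SE 0.32; edgeR, adjusted p = 0.00232). Usp28, which stabilises MYC and binds 53BP1, had 75.8 and 97.4 CPM in the knockdown libraries and 28.6 and 30.3 CPM in WT, or 1.55 (SE 0.31; edgeR, adjusted p = 0.00206), a call lost with scaling on synaptonemal complex and cohesin genes (edgeR, adjusted p = 0.0718). Usp36 rose, whereas its relative Usp42, a histone H2B deubiquitinase, fell to 90.8 and 118 CPM in the knockdown libraries, against 228 and 303 CPM in WT (2.55-fold lower; edgeR, adjusted p = 0.00449). For Usp42, with WT replicate 2 left out, the call was lost (edgeR, adjusted p = 0.059).

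In the group of the SAGA protease, Usp22 and its X-linked relative Usp27x both rose, and Usp51, also X-linked, did not pass. Usp27x had 15.5 and 26.9 CPM in the knockdown libraries and 0.805 and 2.09 CPM in WT (log2 fold change 3.88, SE 0.60; edgeR, adjusted p = 0.000589). Usp51 was low in every library, at 0.508 and 0.557 CPM in the knockdown libraries and 0.656 and 0.869 CPM in WT (-0.51, SE 0.71; edgeR, adjusted p = 0.552). At 22 to 25 reads per library only a large change of Usp51 could have been seen. Usp44 fell, as given above, while its relative Usp49 stood at 5.06 and 3.97 CPM in the knockdown libraries and 4.74 and 4.69 CPM in WT (-0.06, SE 0.49; edgeR, adjusted p = 0.923), and 51.2% of its exonic bases overlap Gm20517 on the same strand. None of these differences between relatives was tested as a difference.

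**Figure D3:**
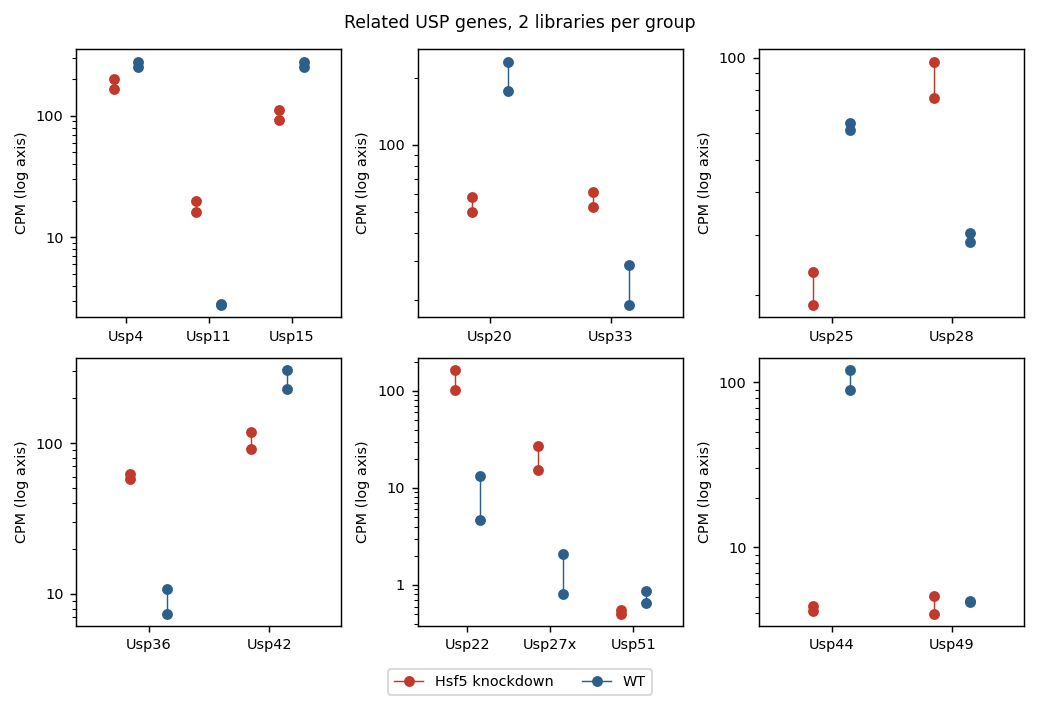
CPM of each library (log axis) for 6 groups of related USP genes, with knockdown libraries left of WT libraries for each gene. Usp20, Usp25, Usp15, Usp42 and Usp44 lie lower in the knockdown libraries, while their relatives Usp33, Usp28, Usp11 and Usp36 lie higher and Usp49 overlaps between the groups.

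Grouped by role, Usp5, Usp14 and Usp13, the relative of Usp5, were listed under free ubiquitin chains and the proteasome. All 3 were called higher, where 27.4% of all genes were, and activity of Usp13 on such chains was not examined. Of these Usp13, described above, passed the filter on low values only through the knockdown libraries. Usp5, which takes apart unanchored ubiquitin chains, had 258 and 209.9 CPM in the knockdown libraries and 118 and 148 CPM in WT (log2 fold change 0.82, SE 0.30; edgeR, adjusted p = 0.0371). Usp14, the protease bound to the proteasome, had 71.8 and 56.4 CPM in the knockdown libraries and 38.3 and 30.4 CPM in WT (0.90, SE 0.32; edgeR, adjusted p = 0.0331). Both calls are weak: scaling on synaptonemal complex and cohesin genes left adjusted p = 0.438 for Usp5 and 0.314 for Usp14 (edgeR), and both calls were lost without either WT library and without knockdown replicate 1 (0.0681 for Usp5 and 0.119 for Usp14 without the last). Exons of Usp14 overlap those of Thoc1 on the opposite strand over 26% of their bases.

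In these small groups the calls of autosomal members are read against the 27.4% of all genes that were higher and the 33.5% that were lower. Usp27x, Usp51, Usp11 and Usp9x are X-linked. Of tested X-linked genes, 67.9% were higher and 16.5% lower, and these members are read against those shares. The 9 histone H2A and H2B deubiquitinases were divided into 3 higher (Usp3, Usp22 and the X-linked Usp27x), 3 lower (Usp16, Usp42 and Usp44) and 3 that did not pass. Of the 8 members of DNA damage and replication control, Usp11 and Usp28 were higher, Usp1, Usp45 and Usp47 were lower, and Usp7, Usp37 and Usp48 did not pass. The 7 members of endosomes, membranes and organelles held 2 rises (Usp19 and Usp33) and 3 falls (Usp8, Usp20 and Usp32), while Usp30 of the mitochondrial outer membrane and Usp10 did not pass. Of 10 signalling members 1 rose (Usp9x), 3 fell (Usp2, Usp15 and Usp25) and 6 did not pass. Usp40, which is in none of these groups, rose by 0.83 (SE 0.31; edgeR, adjusted p = 0.0402), a call that held in 5 of 11 alternative settings.

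Members with no call included some of the deepest sequenced. Usp7, which controls the p53 ligase MDM2 and parts of Polycomb complexes, had 346 and 319.7 CPM in the knockdown libraries and 335 and 346 CPM in WT (log2 fold change -0.03, SE 0.29; edgeR, adjusted p = 0.931), and its groups overlapped. Usp34 had 171 and 403 CPM in the knockdown libraries and 164 and 339 CPM in WT, so its replicates differed more than its groups. Usp53 missed the threshold by little (0.82, SE 0.32; edgeR, adjusted p = 0.0506) and passed with library totals only (0.00861), as did Usp10 (0.0134). Usp39, which works in splicing and lacks catalytic residues, had 75.6 and 59.7 CPM in the knockdown libraries and 56.5 and 64.5 CPM in WT. The remaining members without a call had log2 fold changes between -0.60 (Usp43) and 0.81 (Usp31).

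The Usp17-like genes, copies on chromosome 7 that share sequence with each other, were close to absent. Usp17le had 10 reads in knockdown replicate 1 and none elsewhere, and Usp17lc had 2 reads in knockdown replicate 2 and none elsewhere. Neither was tested. Usp29, an imprinted gene related to Usp26, was near 1 CPM in every library, at 0.847 and 0.848 CPM in the knockdown libraries and 1.01 and 0.66 CPM in WT. Outside the proteases, Usp6nl fell by 1.45 on the log2 scale (SE 0.31; edgeR, adjusted p = 0.00333) and Usp46os1 had 0 and 10 reads in the knockdown libraries against 31 and 14 in WT, without passing.

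Levels of different members were compared as CPM per kilobase of the longest annotated transcript. Usp19 led the family in both knockdown libraries, with 16.5% and 14.8% of the summed CPM per kilobase, against 5.01% and 5.9% in WT. Usp1 took 1.93% and 1.85% in the knockdown libraries, where it ranked 16th, against 18.1% and 14.7% in WT, where it led in both libraries. Usp19, a protease anchored in the endoplasmic reticulum, had 714 and 689 CPM in the knockdown libraries and 319 and 409 CPM in WT. Its log2 fold change of 0.95 (SE 0.31; edgeR, adjusted p = 0.025) did not pass without WT replicate 1 (0.286), without WT replicate 2 (0.106) or with scaling on synaptonemal complex and cohesin genes (0.29). By group means per kilobase the order in the knockdown was Usp19, Usp5, Usp7, Usp47 and Usp4, and in WT it was Usp1, Usp8, Usp2, Usp47 and Usp19. In the knockdown libraries Usp5 and Usp7 changed places between replicates, as did Usp47 and Usp4, so these neighbours do not differ beyond their spread. In WT the 5th place went to Usp7 in replicate 1 and to Usp19 in replicate 2. With coding length in place of transcript length, 4 of the 5 highest members were the same in each group.

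Summed over the 52 genes, the family made up 4398 and 5116 CPM in the knockdown libraries and 6186 and 7003 CPM in WT. As a share of all assigned counts, with no TMM scaling, the family took 0.489% and 0.622% in the knockdown libraries and 0.528% and 0.605% in WT, and these ranges overlap.

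**Figure D4:**
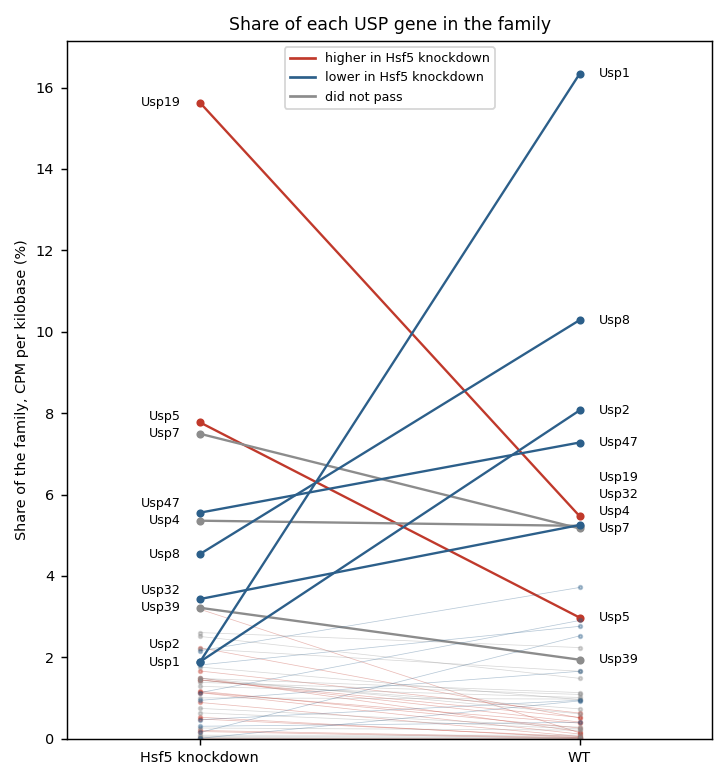
Share of each tested USP gene in the summed CPM per kilobase of the family, as group means in percent, with Hsf5 knockdown on the left, WT on the right and lines coloured by call. Usp19, Usp5 and Usp7 head the knockdown side and Usp1, Usp8 and Usp2 the WT side; names are shown for the 8 highest of either side.

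USPs act with partner proteins, and these were read from lists of known partners. Wdr48 encodes UAF1, the activator of USP1, USP12 and USP46, and Wdr20 a second activator of USP12 and USP46. Wdr48 had 144 and 136 CPM in the knockdown libraries and 667 and 793 CPM in WT, a log2 fold change of -2.39 (SE 0.31; edgeR, adjusted p = 0.00026). Wdr20 had 16.8 and 25.9 CPM in the knockdown libraries and 65.3 and 53 CPM in WT (-1.47, SE 0.35; edgeR, adjusted p = 0.00552). Its testis retrogene Wdr20rt had 10.7 and 8.12 CPM in the knockdown libraries and 201 and 216 CPM in WT (-4.47, SE 0.33; edgeR, adjusted p = 1.4e-05). Usp1 and these 3 partner genes were lower in both knockdown libraries, and each of the 4 calls held in all 11 alternative settings.

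The proteases that share these partners had no call. Usp12 had 52.5 and 63.9 CPM in the knockdown libraries and 50.4 and 37.8 CPM in WT (log2 fold change 0.40, SE 0.31), and Usp46 had 32.9 and 56.3 CPM in the knockdown libraries and 69 and 59.2 CPM in WT (-0.52, SE 0.34). Neither passed (edgeR, adjusted p = 0.296 and 0.213). Dmwd, a relative of Wdr20, rose by 1.31 (SE 0.28; edgeR, adjusted p = 0.0034), a call lost with scaling on synaptonemal complex and cohesin genes (0.114) and without WT replicate 1 (0.0657).

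Of the 5 genes of the SAGA deubiquitinase module listed as partners of Usp22, 4 did not pass. Atxn7l1, a relative of the module's Atxn7, fell by 3.26 (SE 0.37; edgeR, adjusted p = 0.000129). Gmps, the partner of USP7, had 135 and 113 CPM in the knockdown libraries and 464 and 380.2 CPM in WT, and fell by 1.76 (SE 0.30; edgeR, adjusted p = 0.00107). G3bp1 and Stam, which bind USP10 and USP8, rose by 0.96 and 0.99 (SE 0.31 and 0.36; edgeR, adjusted p = 0.0222 and 0.0385), but held those calls in 7 and 5 of 11 alternative settings. Among the E1 enzymes that activate ubiquitin, the X-linked Uba1 had 178 and 268 CPM in the knockdown libraries and 35.8 and 68.5 CPM in WT, and rose by 2.10 (SE 0.39; edgeR, adjusted p = 0.00151). Uba6 rose by 1.73 (SE 0.40; edgeR, adjusted p = 0.00489), a call lost with scaling on synaptonemal complex and cohesin genes (0.111).

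Members of deubiquitinase families without a Usp number, among them 3 of the USP fold under another name, were read from a list. These genes, called other deubiquitinases below, were listed by fold. Their activity on ubiquitin was not examined, including that of Uspl1, Pan2 and Cops5. Of 39 tested, 9 were higher, 13 lower and 17 did not pass, or 23.1% and 33.3% against 27.4% and 33.5% of all genes, with a median log2 fold change of -0.06. Among the OTU proteases, Tnfaip3, the NF-kappaB inhibitor A20, had 126 and 69.5 CPM in the knockdown libraries and 1.16 and 1.67 CPM in WT (6.11, SE 0.47; edgeR, adjusted p = 1.55e-05), and Otub2 had 3.96 and 4.41 CPM in the knockdown libraries and 81.1 and 46.4 CPM in WT (-3.93, SE 0.41; edgeR, adjusted p = 8.09e-05). Uchl1, a marker of spermatogonia, had 213 and 142 CPM in the knockdown libraries and 17.2 and 15.9 CPM in WT. Of the 7 metalloproteases, 3 were higher (Brcc3, Mysm1 and Mpnd), 3 were lower and 1 did not pass. Among those lower were the endosomal Stambp and its relative Stambpl1, at -3.39 (SE 0.32) for Stambp and -3.76 (SE 0.53) for Stambpl1 on the log2 scale. Mindy4 and Mindy1, which trim long ubiquitin chains, both fell by 1.77 (SE 0.30 and 0.31), and Cyld, a USP-fold protease of linear and K63-linked chains, rose by 1.88 (SE 0.32). These 5 calls passed the test (edgeR, adjusted p between 4.24e-05 and 0.00118).

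**Figure D5:**
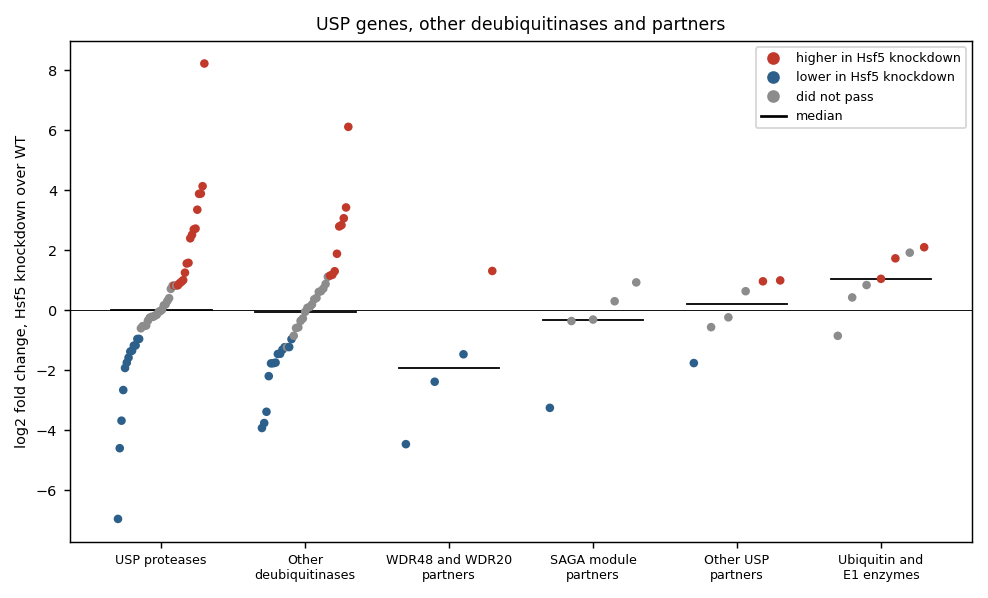
Log2 fold change of Hsf5 knockdown over WT for the tested USP protease genes, other deubiquitinases, 3 sets of USP partners and the ubiquitin and E1 genes, 1 point per gene coloured by call, with a line at each median. The medians of the USP proteases and of the other deubiquitinases lie near 0, at -0.01 and -0.06, and the WDR48 and WDR20 set lies at -1.93.

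Promoter sequence was available for 39 of the 52 protease genes, from RefSeq on GRCm38.p6, and the 250 bases before the annotated start were searched on both strands. The 13 genes without a sequence include the called members Usp1, Usp44, Usp42, Usp22, Usp9x, Usp18, Usp33, Usp14 and Usp5. The motif and CpG values therefore do not cover them. Heat shock elements, the sites of heat shock factors, were searched as GAANNTTC and TTCNNGAA. No member held GAANNTTC, which occurs in 6.69% of 32851 promoter windows, and 1 of 39 members, Usp16, held TTCNNGAA, which occurs in 7.17%. MYB elements were searched as TAACGG together with its known close relatives, spelled TAACTG in one form, spelled CAACGG in another and spelled CAACTG in the last, and were found in 7 of the 39, or 17.9%, against 23.7% of all windows. The cyclic AMP element TGACGTCA was in none of the 39 and in 1.55% of all windows. The windows of the 11 members called higher, the 10 called lower and the 17 not called held medians of 18, 24.5 and 25 CpG dinucleotides, against 6 in all windows. These matches describe letters only.

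Windows are shown for the deepest fall (Usp50), the largest X-linked rise (Usp27x), the only one of the 39 with a heat shock element (Usp16) and 2 rises with a MYB element (Usp36 and Usp26), read 5′ to 3′ on the gene's strand, with matches in capitals. In Usp16 the heat shock element begins at -14 and the MYB element, read on the opposite strand, at -96 from the start. In Usp36 and Usp26 the MYB element begins at -10 and -195. The windows of Usp50 and Usp27x hold none of the motifs searched, with 2 and 24 CpG dinucleotides. For Usp26, unlike the other 4, no transcript start of GENCODE was found in the promoter sequence from which the window was cut.
Usp50 (chr2:126783461-126783710, - strand): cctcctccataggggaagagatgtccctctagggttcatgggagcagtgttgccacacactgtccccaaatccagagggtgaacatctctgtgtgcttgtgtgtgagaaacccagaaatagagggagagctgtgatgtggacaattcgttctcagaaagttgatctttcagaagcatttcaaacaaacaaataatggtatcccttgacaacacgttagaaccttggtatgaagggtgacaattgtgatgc
Usp27x (chrX:7375831-7376080, - strand): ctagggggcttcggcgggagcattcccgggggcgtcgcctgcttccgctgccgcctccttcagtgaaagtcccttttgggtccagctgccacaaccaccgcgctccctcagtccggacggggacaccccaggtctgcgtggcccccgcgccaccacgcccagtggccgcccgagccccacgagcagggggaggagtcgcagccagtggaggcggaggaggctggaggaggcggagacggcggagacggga
Usp16 (chr16:87454735-87454984, + strand): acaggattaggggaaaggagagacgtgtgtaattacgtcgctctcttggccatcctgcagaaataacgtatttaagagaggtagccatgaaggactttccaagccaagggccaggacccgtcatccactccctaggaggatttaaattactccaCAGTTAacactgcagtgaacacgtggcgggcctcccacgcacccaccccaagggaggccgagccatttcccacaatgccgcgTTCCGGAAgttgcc
Usp36 (chr11:118290245-118290494, - strand): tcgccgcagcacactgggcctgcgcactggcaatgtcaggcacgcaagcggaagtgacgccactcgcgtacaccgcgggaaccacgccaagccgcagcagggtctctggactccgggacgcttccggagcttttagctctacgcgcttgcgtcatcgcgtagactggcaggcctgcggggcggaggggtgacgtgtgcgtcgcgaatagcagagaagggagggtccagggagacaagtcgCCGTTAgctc
Usp26 (chrX:51801234-51801483, - strand): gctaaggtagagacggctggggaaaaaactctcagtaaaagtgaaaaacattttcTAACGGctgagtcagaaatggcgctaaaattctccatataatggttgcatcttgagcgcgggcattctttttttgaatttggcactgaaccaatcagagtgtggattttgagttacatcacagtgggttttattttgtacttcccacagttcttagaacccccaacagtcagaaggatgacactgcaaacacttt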

How the data were processed

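The authors deposited raw counts of reads per gene in a single table, by gene symbol, and columns were assigned to libraries through their labels. The submitters' processing notes name Trim Galore 0.6.10 and HISAT2 2.2.1, build mm39, featureCounts 1.5.3, and also DESeq2 1.46.0. The annotation, strandedness and handling of multi-mapped reads were not given in the sources used here; counts of overlapping genes, antisense partners and near copies are therefore less certain. Depth was 33287428 to 42479164 counts per library. The bound for a gene without reads takes 3 reads over the group and covers counting error only.

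All 4 libraries were fitted with edgeR 4.0.16 (R 4.3.3). The filter filterByExpr kept 23594 of the 36809 genes that had any count, and TMM was used for scaling. Hsf5 knockdown was compared with WT by the quasi-likelihood F test, with Benjamini-Hochberg adjustment over all genes tested and a threshold of 0.05. Each SE is the absolute log2 fold change over the root of its F value. The fit was tested on simulated data. Alternatives were DESeq2 1.42.0, other scalings and filters, a block by replicate number, a fold minimum, coding length and leaving out each library.

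Full values were given to the 12 largest rises and falls among called members averaging 1 CPM or more, to sex-linked members, to related genes called in opposite directions and to the 3 highest per kilobase in each group. Partner lists gave up to 3 genes by smallest p. Other members were named after their values were seen. The members and all lists were chosen with earlier results of these data known. Promoters came from RefSeq (GRCm38.p6); chromosomes, lengths, exon overlaps and shared 75-base stretches came from annotation of the same older build, matched by symbol.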

Additional observations from a re-analysis of the deposited data

How the results depend on the processing

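The 17 rises and 13 falls of USP genes were refitted under 11 alternative settings. Of the rises, 8 passed in every setting in which the gene was tested (Usp13, Usp18, Usp22, Usp27x, Usp26, Usp36, Usp11 and Usp9y), and of the falls 8 passed in every setting (Usp15, Usp25, Usp8, Usp20, Usp2, Usp1, Usp44 and Usp50). No called USP gene changed sign. Usp13 and Usp18 passed the filter on low values only through the knockdown libraries, and Usp50 only through the WT libraries. Usp13 had no WT read, so its sign could not change in any setting. With scaling on synaptonemal complex and cohesin genes, 8 USP genes, 3571 of all genes, 5 other deubiquitinases and 1 partner or ubiquitin gene were higher, against 17, 6467, 9 and 6 with TMM. With library totals only, 14 other deubiquitinases and 11 partner or ubiquitin genes were higher. Leaving out 1 library at a time, USP genes higher ranged from 11 to 16 and lower from 9 to 12, and partner or ubiquitin genes higher from 3 to 7. Usp7, which has no call, had a log2 fold change of 0.40 with library totals only. It was -0.43 with scaling on synaptonemal complex and cohesin genes and 0.0058 without the low-count filter, and none of these passed the test. With 1 library left out, the log2 fold change of Usp7 lay between -0.0701 and 0.0271, among them 0.014 without WT replicate 2. The cause of these shifts was not tested.

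The replicate numbers may or may not pair the libraries, since the labels name no shared animal or batch. Same-numbered libraries deviated together (Pearson's r = 0.32 over 23594 genes, a description). With the replicate number as a block, 20 USP genes were higher and 13 lower, the added rises being Usp53, Usp31 and Usp10. Depth limits genes near the floor, such as Usp51 and Usp29, and 2 libraries per group limit the changes that can be called.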
